A study of Mus musculus with 120 samples.

Results

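The Cyp4 family of cytochrome P450 enzymes was followed in liver as 7 genes: *Cyp4a10*, *Cyp4a14*, *Cyp4a12a*, *Cyp4f14*, *Cyp4f15*, *Cyp4v3* and *Cyp4b1*. Their probe sets were those to which the platform annotation gave a single symbol among these genes, which yielded 7 of the 45037 probe sets, and all 7 lay on the MOE430A array. *Cyp4v3* had 2 probe sets, the other 5 measured genes had 1 each, and *Cyp4a10* had none of its own. One further probe set was annotated to both *Cyp4a10* and *Cyp4a31*. It was kept apart from the 7 and is given below as the shared *Cyp4a10*/*Cyp4a31* probe set. *Cyp4a12a* has a near-identical copy, *Cyp4a12b*, so its signal may include transcripts of both.

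The livers came from 60 F2-*ob/ob* mice of a C57BL/6J by BTBR intercross, 31 females and 29 males. They were killed at 14 weeks of age after 4 h without food. Every mouse lacked leptin through the *ob* mutation, so no lean or untreated group stands beside them, and the groups compared were the sexes and the genotypes at mapped markers. The mice had been selected by the authors on their genotypes from a larger F2 panel. Each mouse gave 1 MOE430A and 1 MOE430B array, and every spread below is therefore a spread between animals.

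Cyp4 enzymes are bound to the endoplasmic reticulum, where they add a hydroxyl group to the end of a fatty acid chain (omega hydroxylation). Alcohol and aldehyde dehydrogenases then turn the product into a dicarboxylic acid, which peroxisomes shorten. *Cyp4a10* and *Cyp4a14* are classical targets of the fatty acid receptor PPARA in mouse liver. *Cyp4a12a* encodes the main arachidonic acid omega hydroxylase of male mice and is known for its dependence on androgen. The Cyp4f enzymes act on leukotrienes and other eicosanoids and on long fatty acids. *Cyp4v3* is the mouse counterpart of human *CYP4V2*, an omega hydroxylase of fatty acids that is mutated in Bietti crystalline dystrophy. *Cyp4b1* encodes an enzyme of medium-chain fatty acids and of xenobiotics that is best known from lung.

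In the mouse genome (GRCm38.p6) *Cyp4a12a* (chr4:115299046-115332815), *Cyp4a14* (chr4:115486200-115496158), *Cyp4a10* (chr4:115518287-115533649) and *Cyp4b1* (chr4:115624698-115647721) lie within 349 kb of Chromosome 4. *Cyp4f15* (chr17:32685631-32703352) and *Cyp4f14* (chr17:32903357-32917376) lie within 231.7 kb of Chromosome 17. *Cyp4v3* (chr8:45305801-45333163) stands alone on Chromosome 8. *Cyp4f14* and *Cyp4f15* correlated across the 60 mice (r = 0.66), a call that was lost on ranks and without 6 mice whose arrays stood apart. Because of this correlation, the RefSeq windows from 250 bases before to 50 bases after their annotated starts are shown here. The longest run of bases that both windows share is in capitals.
Cyp4f15 (chr17:32685409-32685708, + strand, GRCm38.p6): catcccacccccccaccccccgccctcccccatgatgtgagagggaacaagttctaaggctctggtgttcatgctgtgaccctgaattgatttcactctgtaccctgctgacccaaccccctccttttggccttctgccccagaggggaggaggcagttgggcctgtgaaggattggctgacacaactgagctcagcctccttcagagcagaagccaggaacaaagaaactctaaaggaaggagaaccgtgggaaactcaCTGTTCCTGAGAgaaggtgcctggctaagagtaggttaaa
Cyp4f14 (chr17:32917307-32917606, - strand, GRCm38.p6): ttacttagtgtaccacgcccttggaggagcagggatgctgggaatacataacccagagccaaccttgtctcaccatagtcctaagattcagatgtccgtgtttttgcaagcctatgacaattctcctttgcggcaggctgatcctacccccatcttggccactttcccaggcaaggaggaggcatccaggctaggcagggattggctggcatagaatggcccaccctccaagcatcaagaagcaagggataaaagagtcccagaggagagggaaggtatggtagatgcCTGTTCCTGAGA
The shared run of 12 bases lay after the start of both genes, at bases 11 to 22 of *Cyp4f15* and at bases 39 to 50 of *Cyp4f14*. The *Cyp4f14* window ends with the run, and windows of later *Cyp4f14* starts show that the next base, g, is shared as well. Its length was thus cut by the edge of the window. The run of 12 bases was present on either strand in 9 of 32851 such windows (0.0274%), and 5 of these 9 belonged to *Cyp4f14* or *Cyp4f15*. The starts are those of the table of windows and lie inside the gene bounds given above. It holds 4 for *Cyp4f14*, of which the one farthest upstream was used. The core motif of nuclear receptors, AGGTCA, searched on both strands, was in none of the 7 windows of *Cyp4f14*, *Cyp4f15*, *Cyp4v3* and *Cyp4b1*, and 16.3% of all windows held it. Its direct repeat with 1 base between, the element that PPARA binds, was likewise in none of the 7 and in 0.0396% of all windows. The shared run was looked for after the correlation of the pair had been seen, and a match or its absence in these letters says nothing of what binds there.

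The values are RMA estimates on the log2 scale, on which a difference of 1 is a doubling. The median probe set of MOE430A had a mean of 7.04 and an SD across mice of 0.133. All 7 Cyp4 probe sets varied more than that, and the SD of *Cyp4a12a* exceeded that of 99.95% of the probe sets of its array. Levels of different probe sets were not compared, since their probes differ. In 6 of the 60 mice an array stood apart from the others of its type in its correlation with them. One of the 6, the male mouse 167, had the lowest value of *Cyp4f14*, *Cyp4f15* and *Cyp4b1*, and another, the female mouse 484, had the highest value of *Cyp4f14* and *Cyp4f15*. Several results moved when these mice were left out, and the values without them stand beside many of those results.

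*Cyp4a12a* was the only Cyp4 gene called different between the sexes, and it was higher in males. Among females its log2 value ran from 7.22 to 11.77 with a median of 9.77, and among males from 9.14 to 11.75 with a median of 10.99. The groups overlapped widely at the top, where the single highest value belonged to a female, while 10 of the 31 females lay below the lowest male. The mean was 10.84 ± 0.69 (SD, n = 29) in males and 9.61 ± 1.29 (SD, n = 31) in females. The difference of 1.23 ± 0.26 (SE) on the log2 scale corresponds to 2.34-fold (limma, Benjamini-Hochberg adjusted p = 0.0060 over all probe sets). Of all probe sets, 1.41% were called in either direction, 0.4% higher in males and 1.01% higher in females. The range among females amounted to 23.4-fold, against 6.11-fold among males, so that the SD in females was 1.85 times that in males. The call held without the 6 mice with an array apart (adjusted p = 0.0052) and with body weight at 10 weeks as a covariate (adjusted p = 0.031).

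**Figure D1:**
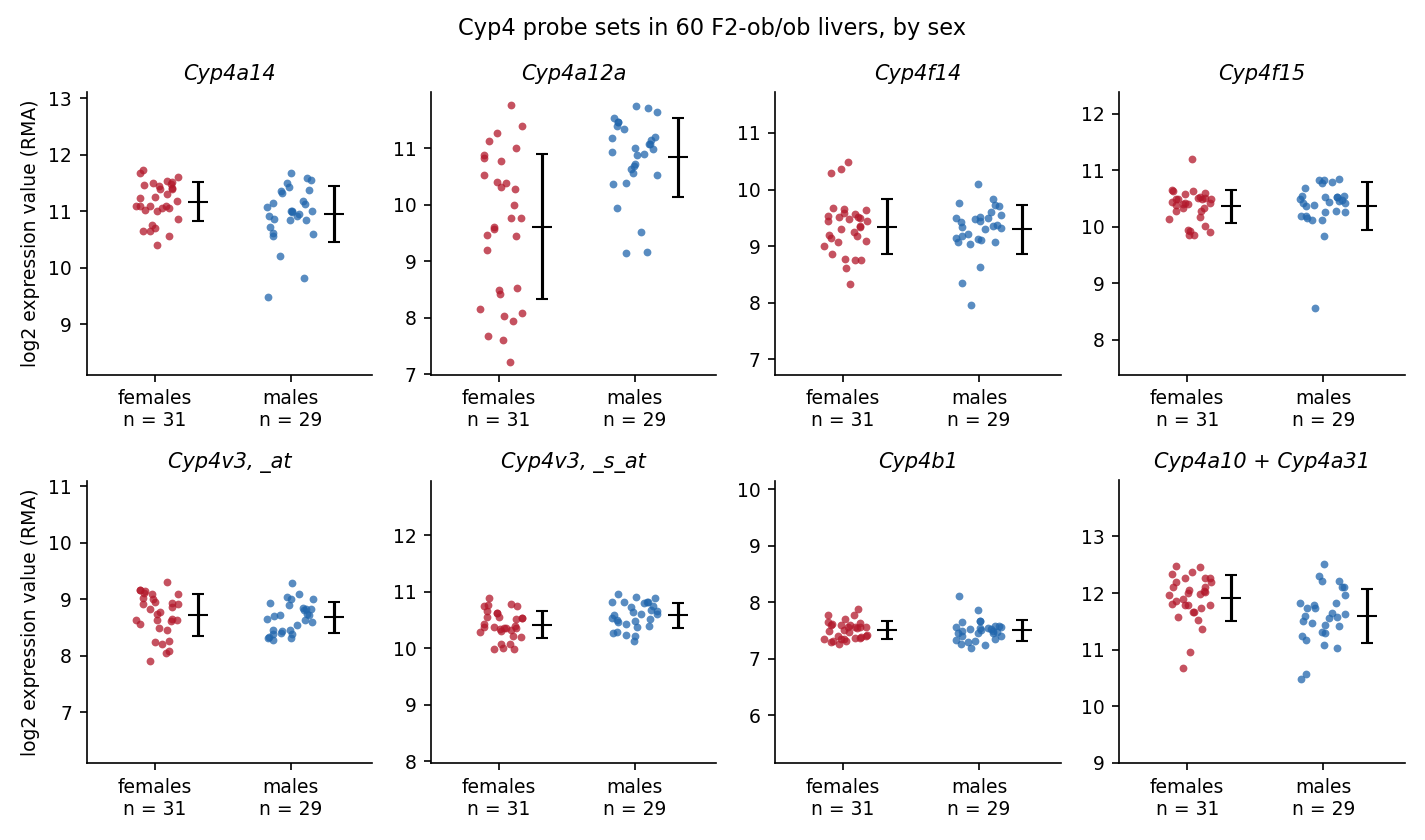
Log2 expression values (RMA, vertical axis, spanning 5 units in every panel) of the 7 Cyp4 probe sets and of the probe set shared by *Cyp4a10* and *Cyp4a31*, 1 point a mouse, in 31 females and 29 males; bars give the mean and SD. *Cyp4a12a* spreads from 7.22 to 11.77 in females and from 9.14 to 11.75 in males, and the other panels overlap almost wholly.

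The PPARA-controlled Cyp4a genes ran the other way without passing the threshold. *Cyp4a14* ran from 10.40 to 11.73 in females with a median of 11.19, and from 9.49 to 11.67 in males with a median of 11. Its mean differed between males and females by -0.22 ± 0.11 (SE, adjusted p = 0.31). The shared *Cyp4a10*/*Cyp4a31* probe set ran from 10.67 to 12.47 in females (median 11.99) and from 10.47 to 12.51 in males (median 11.59). Its difference was -0.31 ± 0.11 (SE, adjusted p = 0.14), and 26 of 31 females exceeded the male median. Without the 6 mice with an array apart the difference was -0.42 with an adjusted p of 0.013, so this call depended on them. 

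The sex differences of the remaining Cyp4 probe sets were small. *Cyp4f14* differed by -0.04 ± 0.12 (SE, adjusted p = 0.89) with a median of 9.35 in each sex, and it ran from 8.33 to 10.49 in females and from 7.96 to 10.10 in males. *Cyp4f15* differed by 0.01 ± 0.09 (adjusted p = 0.97) and ran from 9.85 to 11.20 in females (median 10.42) and from 8.57 to 10.84 in males (median 10.44). The male value of 8.57 was that of mouse 167, and the next lowest of all mice was 9.84. The 2 probe sets of *Cyp4v3* disagreed in sign, at -0.05 ± 0.08 for the one with the suffix _at (adjusted p = 0.82) and 0.16 ± 0.06 for the one with the suffix _s_at (adjusted p = 0.16). *Cyp4b1* varied least, between 7.20 and 8.11, and differed by -0.01 ± 0.04 (adjusted p = 0.97). An adjusted p above the threshold does not show that the sexes were alike.

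Across the 60 mice the lowest correlation of *Cyp4a12a* with another gene of its array type was with *Sult2a2* (r = -0.75, adjusted p = 5.8e-08), a sulfotransferase of steroids and bile acids. The correlation was -0.64 within females and -0.65 within males, so it was present within each sex. *Rdh16f2*, a member of the retinol dehydrogenase family, followed at r = -0.68, with -0.63 in females and -0.56 in males. The highest correlations were with *Gstp1*, a glutathione transferase (r = 0.69, adjusted p = 9.1e-06), the efflux transporter *Abcg2* (r = 0.61), the male-biased P450 *Cyp2d9* (r = 0.58), *Gstm1* (r = 0.57) and the thrombin receptor *F2r* (r = 0.55). Of these 5, *Gstp1* and *Cyp2d9* were called higher in males, and *Abcg2*, *Gstm1* and *F2r* were not called between the sexes (adjusted p = 0.11, 0.35 and 0.15). Within females the 5 correlations ran from 0.32 to 0.62 and within males from 0.35 to 0.74, given without a test. 

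Similar relations were found in lists of genes known to be biased between the sexes in mouse liver. Of 18 male-biased probe sets, 6 had a called positive slope on *Cyp4a12a* and 0 a negative one, against 0.0866% and 0.142% of all probe sets. They belonged to 5 genes. *Cyp2d9*, *Cyp7b1* (r = 0.54 and 0.51 for its 2 called probe sets), which hydroxylates oxysterols, and the complement component *C6* (r = 0.54) were also called higher in males. The fatty acid elongase *Elovl3* (r = 0.48) and the urinary protein gene *Mup3* (r = 0.50) were not called between the sexes (adjusted p = 0.13 and 0.18). The median r of the list was 0.33, with 0.24 within females and 0.34 within males, and that of all probe sets was 0.00.

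Of 14 female-biased probe sets, 3 had a called negative slope and 0 a positive one. They were *Cyp17a1* (r = -0.60), a steroid hydroxylase, *Hao2* (r = -0.53), a peroxisomal hydroxy acid oxidase, and *Cux2* (r = -0.48), a transcription factor restricted to female liver. The list had a median r of -0.38, with -0.23 within females and -0.17 within males. *Cyp2b13*, the member with the largest sex difference (-1.31, adjusted p = 0.0019), did not follow *Cyp4a12a* (r = -0.27, adjusted p = 0.75). Outside these lists *Cidea*, a lipid droplet protein, had r = 0.50 with *Cyp4a12a*, at 0.56 in females and 0.34 in males (adjusted p = 0.021). The nuclear receptor CAR, encoded by *Nr1i3*, had r = -0.57 (adjusted p = 0.0020), with -0.43 in females and -0.47 in males.

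*Cyp4a14* moved most closely with its neighbour in the cluster. Its correlation with the shared *Cyp4a10*/*Cyp4a31* probe set was r = 0.82 (rho = 0.84, permutation p = 1e-05 for each, the smallest that 100000 permutations can give; adjusted p = 9.1e-12 over all probe sets). It was 0.80 in females and 0.82 in males, and 0.79 without the 2 mice farthest from the median. A probe set of *Cyp4a31* on MOE430B had r = 0.59 with *Cyp4a14* (adjusted p = 0.00093), and the one on MOE430A had r = 0.31 (adjusted p = 0.22). Near-identical sequences of this cluster can bind the same probes, and their part in these correlations was not tested. *Cyp4a12a*, in the same cluster, had r = -0.30 with *Cyp4a14* (adjusted p = 0.67), with -0.16 within females and -0.32 within males.

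**Figure D2:**
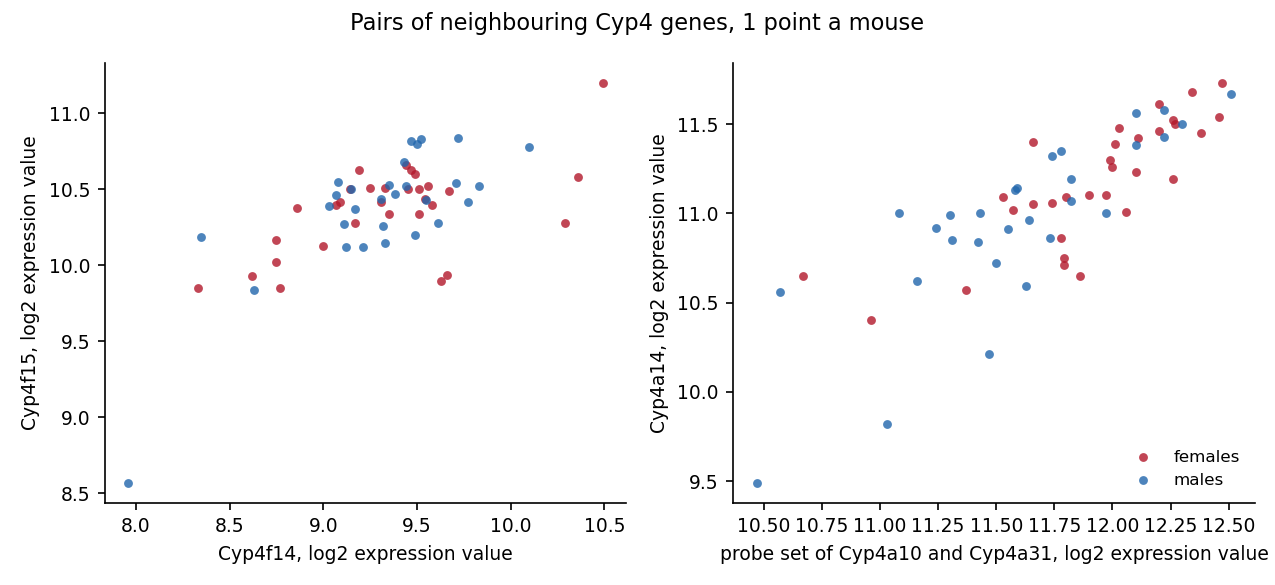
Log2 expression values of *Cyp4f15* against *Cyp4f14* (left) and of *Cyp4a14* against the probe set of *Cyp4a10* and *Cyp4a31* (right), 1 point a mouse, females in red and males in blue. The right-hand points follow a line in both sexes (r = 0.82), while on the left (r = 0.66) the point at 7.96 and 8.57 is mouse 167.

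Among other genes, the closest to *Cyp4a14* were *Retsat* (r = 0.69, adjusted p = 1.1e-05), a retinol saturase, the P450 genes *Cyp2a12* (r = 0.67) and *Cyp39a1* (r = 0.62), the glutathione transferase *Gstt3* (r = 0.62) and the organic cation exporter *Slc47a1* (r = 0.61). *Retsat* reached 0.75 in females and 0.80 in males. The lowest correlations were with *C6* (r = -0.63, at -0.35 in females and -0.76 in males) and the phosphatase gene *Ptpn18* (r = -0.62).

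The PPARA targets followed *Cyp4a14* in part. Of 17 probe sets for peroxisomal targets 3 had a called positive slope, of 20 for mitochondrial targets 4, and of 32 for other targets 3, with 0 negative in each list. Over all probe sets 0.941% were called, 0.595% positive and 0.346% negative. The called peroxisomal genes were *Ehhadh* (r = 0.57), the bifunctional enzyme of peroxisomal beta-oxidation, and the thioesterases *Acot4* (r = 0.48) and *Acot3* (r = 0.44). The mitochondrial ones included *Hadhb* (r = 0.54), *Acadm* (r = 0.47) and *Acadl* (r = 0.46), all of beta-oxidation. The others were the cytosolic thioesterase *Acot1* (r = 0.59), the fatty acid transporter *Cd36* (r = 0.48) and the carnitine transporter *Slc22a5* (r = 0.47). The median r was 0.28, 0.27 and 0.09 for the 3 lists and -0.01 for all probe sets.

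Of the genes that oxidize or activate the omega-hydroxylated chain, 2 of 16 probe sets had a called positive slope on *Cyp4a14*: *Slc27a2* (r = 0.52), an acyl-CoA synthetase and transporter, and *Aldh9a1* (r = 0.45), an aldehyde dehydrogenase. None of the 22 probe sets of PPARA and its partners was called against *Cyp4a14*. Nor was any of the 8 probe sets listed as P450 electron donors, which cover *Cyb5a*, *Cyb5b* and *Cyb5r3* but not the reductase gene *Por*. In the same peroxisomal list 6 of 17 probe sets were higher in females and 0 in males, against 1.01% and 0.4% of all probe sets. *Acot3* differed most, by -0.63 (adjusted p = 0.00035), followed by *Ehhadh* at -0.46 (adjusted p = 0.021). *Ehhadh* had no called relation to *Cyp4a12a* (r = -0.10, adjusted p = 0.99), whereas *Acot3* fell where *Cyp4a12a* rose (r = -0.54, adjusted p = 0.0070). These r are over both sexes together, and the 2 genes *Acot3* and *Cyp4a12a* differed between the sexes in opposite directions. The median r of the peroxisomal list with *Cyp4a12a* was -0.14 over all mice, 0.02 within females and -0.03 within males.

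*Cyp4f14* and *Cyp4f15* were the single pair among the 15 pairs of the 6 measured genes that was called. Their r was 0.66 (rho = 0.52, permutation p = 1e-05 for r and 2e-05 for rho; adjusted p = 4.2e-05, the larger of the fits in both directions), with 0.59 in females and 0.76 in males. Without mouse 167 it was 0.59 (adjusted p = 0.0033), and without the 6 mice with an array apart 0.43 (adjusted p = 0.19). On ranks the adjusted p was 0.077. The call was thus lost without these 6 mice and on ranks. *Cyp4v3* had r = 0.39 with *Cyp4f14* and 0.28 with *Cyp4f15* (adjusted p = 0.13 and 0.27). Its 2 probe sets correlated at r = 0.65. The shared *Cyp4a10*/*Cyp4a31* probe set had r = 0.51 with *Cyp4v3* (adjusted p = 0.0051) and 0.27 and 0.26 with *Cyp4f14* and *Cyp4f15* (adjusted p = 0.46 and 0.35). *Cyp4b1* had r between -0.01 and 0.25 with the others.

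The closest gene to *Cyp4f14* was *Lifr*, the receptor of leukemia inhibitory factor, at r = 0.82 (adjusted p = 1.3e-11), with 0.83 in females and 0.80 in males, and 0.80 without the mice with an array apart. *Cyp2c23* (r = 0.70) and *Cyp2c54* (r = 0.64), P450 genes of fatty acid epoxidation, and *Cyp27a1* (r = 0.63), of bile acid synthesis, were also among its highest. Of all probe sets 0.411% had a called positive and 0.198% a called negative slope on *Cyp4f14*. *Slc6a8*, the creatine transporter (r = -0.62), and *Golm1* (r = -0.60), a protein of the Golgi, were the lowest.

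For *Cyp4f15* the highest r was 0.89, with *Cth* (adjusted p = 2.1e-18), which makes cysteine, 0.86 with *Hgd*, of tyrosine breakdown, 0.84 with *Hal*, of histidine breakdown, and 0.84 with *Mthfd1*, of the folate cycle. *Dcaf11*, a substrate adaptor of a ubiquitin ligase, had 0.86. The 5 correlations stayed between 0.61 and 0.83 without the 6 mice with an array apart. The lowest were *Sptlc2*, of sphingolipid synthesis (r = -0.76), and the oncostatin M receptor *Osmr* (r = -0.74), which became -0.60 and -0.46 without those mice. Of 11 hepatocyte probe sets, 2 had a called positive slope on *Cyp4f15* and 4 a negative one, against 1.83% and 1.26% of all probe sets. The positive ones were *Cps1*, of the urea cycle (r = 0.74, adjusted p = 5.7e-09), and *Tat* (r = 0.46). The 4 negative ones were probe sets of *Apoa1*, with r from -0.50 to -0.46. *Cps1* also had r = 0.62 with *Cyp4f14* (adjusted p = 0.00035). Of 6 periportal probe sets 3 had a called positive slope on *Cyp4f15*, and of 8 pericentral ones 2 (*Oat* and *Cyp1a2*), against 1.83% of all probe sets (3.09% in either direction). *Cyp4f14* likewise had called slopes with *Hal* (r = 0.53, and 0.20 without the mice with an array apart), *Cyp2f2* (r = 0.62) and *Oat* (r = 0.52). *Plin2* (r = -0.53) and *Cidec* (r = -0.49), which coat lipid droplets, and *Pdk4* (r = -0.55), which restrains pyruvate oxidation, were called in the negative direction (1.26% of all). Without mouse 167 the r of *Plin2* and *Cidec* was -0.55 and -0.55 and that of *Pdk4* -0.29.

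*Cyp4v3* was called with a far larger share of the arrays, at 13.3% of all probe sets, and its _at probe set, used here, had r = 0.37 with the first principal component of MOE430A, against -0.03 for the _s_at probe set. Its closest genes were the urea cycle gene *Otc* (r = 0.79), the glycosyltransferase *Ugt3a2* (r = 0.78), the ubiquitin ligase adaptor *Ndfip1* (r = 0.77), *Itfg1* (r = 0.76) and *Hibadh* (r = 0.75), of valine breakdown. The lowest were *Grn*, the progranulin gene (r = -0.69), and *Ncf4*, a subunit of the phagocyte oxidase (r = -0.64). Of 8 probe sets listed as electron donors of P450 enzymes, 6 had a called positive slope on *Cyp4v3* (8.18% of all, with 5.14% called negative). These belonged to *Cyb5a*, *Cyb5b* and *Cyb5r3*, the 3 genes of that list that were measured. The P450 reductase gene *Por* had no probe set with its symbol alone. *Cyp4b1*, with 3.09% of all probe sets called and 2.21% called positive, was closest to *Ndrg1* (r = 0.68), *Trim28* (r = 0.68), *Wrap73* (r = 0.65), the RNA helicase *Ddx17* (r = 0.65) and *Bcar3* (r = 0.65), and lowest with the transcription factor *Nfia* (r = -0.59) and *Dab2* (r = -0.58). *Trim28* encodes a corepressor and *Ndrg1* a stress-responsive protein.

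In the main scan, with 194 markers and 545 test points, none of the 7 Cyp4 probe sets reached a LOD score of 3.4, the threshold of the study. Of all probe sets, 15.8% reached it there at some point of the genome. The paper names 194 markers but reports 465 test points, which is the number given here by the 145 markers. With those markers 6012 probe sets (13.3%) reached the threshold, close to the paper's count of mapping transcripts. Among them was *Cyp4a12a*, at 3.91 on Chromosome 4 (75 cM). The LOD score compares the fit of a model with a locus to that of one without. *Cyp4a14* came within 0.02 of the threshold, at 3.38 on Chromosome 6 (45 cM). There 34 mice were AA with values from 10.21 to 11.56 (median 11.12) and 25 were AB with values from 9.49 to 11.73 (median 11.05), and the single BB mouse was at 9.82. The letters are those of the deposited genotypes, and which founder strain each stands for was not stated. The AA and AB groups overlapped almost wholly, and the BB group held 1 mouse. Haley-Knott regression gave 1.25 at this point and at most 2.48 on the chromosome (35 cM). The LOD was 3.77, above the threshold, without the 6 mice with an array apart, and 3.34 with the table of 145 markers. On normal scores the highest LOD of *Cyp4a14* was 1.61, on another chromosome. 

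**Figure D3:**
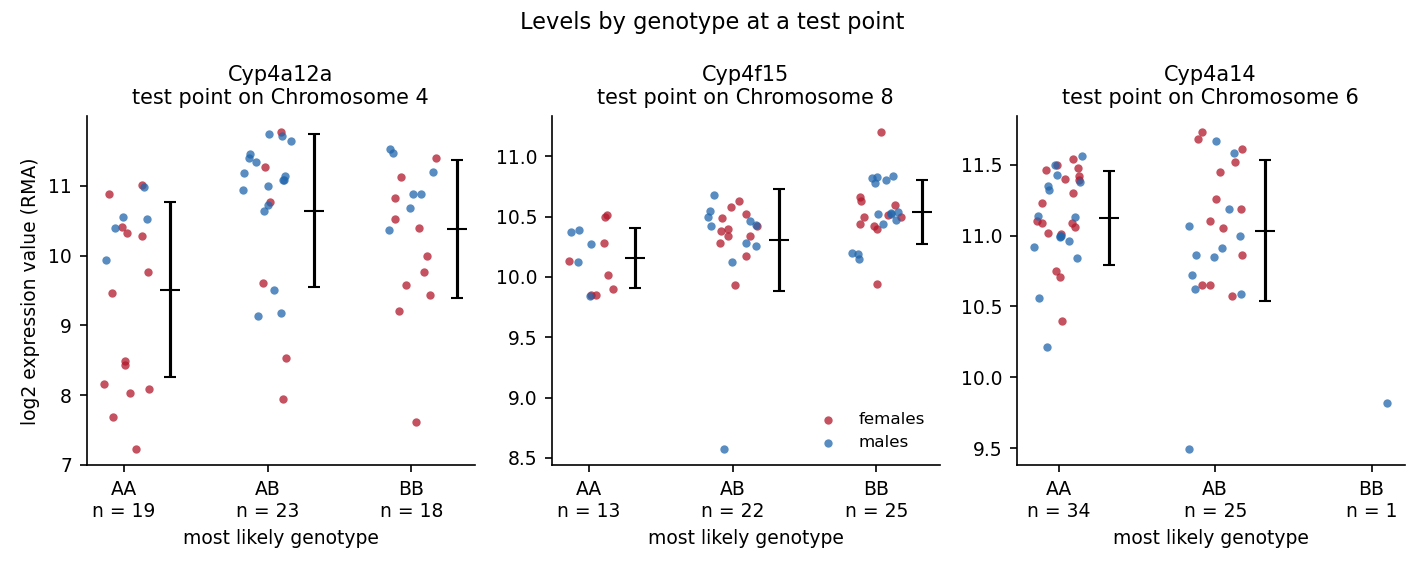
Log2 expression values of *Cyp4a12a*, *Cyp4f15* and *Cyp4a14* by the most likely genotype at 1 test point each, 1 point a mouse, females in red and males in blue, with the mean and SD of groups of more than 1 mouse. *Cyp4f15* is higher from AA to BB apart from mouse 167 at 8.57, and *Cyp4a14* has a single BB mouse, at 9.82.

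*Cyp4f15* had its highest LOD of 2.62 on Chromosome 8 (58.1 cM), away from its own Chromosome 17. Values ran from 9.84 to 10.51 (median 10.13) in 13 AA mice, from 8.57 to 10.68 (median 10.41) in 22 AB mice and from 9.94 to 11.20 (median 10.52) in 25 BB mice. The means were 10.16 ± 0.25, 10.31 ± 0.42 and 10.54 ± 0.26 (SD), a difference between the homozygotes larger than either SD, though their ranges overlapped. The order of the means was the same within each sex, at 10.13, 10.37 and 10.53 in females and 10.20, 10.23 and 10.55 in males. Without the 6 mice with an array apart the LOD at this point was 4.36, and on normal scores it was 4.44, both above the threshold. A point on Chromosome 2 (95 cM) was nearly as high in the main scan, at 2.58. By Haley-Knott regression it was the highest of the genome, at 2.75 with a permutation p of 0.25, and it was also the highest (2.63) with the first principal component removed. *Cps1* had its highest LOD at the same point (4.66), as had *Oat*, of ornithine breakdown (3.60). These genes had r = 0.74 and 0.58 with *Cyp4f15* and were named after their values were seen. Their scores are therefore not independent of *Cyp4f15*.

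*Cyp4a12a* had points of nearly equal height, with 2.78 on Chromosome 5 (29.6 cM) and 2.78 on its own Chromosome 4 (29.1 cM). Where the gene itself lies on the cM map was not determined, so the latter point need not be near it. At 29.1 cM of Chromosome 4, 19 AA mice ran from 7.22 to 11.01 (median 9.94), 23 AB mice from 7.94 to 11.77 (median 11.08) and 18 BB mice from 7.61 to 11.53 (median 10.60). The sexes were not spread evenly, since 14 of the 19 AA mice and 6 of the 23 AB mice were females. Within females the means were 9.16 ± 1.28 (AA, n = 14), 9.98 ± 1.54 (AB, n = 6) and 9.99 ± 1.06 (BB, n = 11), and within males 10.48 ± 0.38 (n = 5), 10.88 ± 0.83 (n = 17) and 11.003 ± 0.42 (n = 7). With sex removed before the scan the highest LOD was 2.48, on Chromosome 5. Without the mice with an array apart it was 3.61 at 29.1 cM of Chromosome 4. With the smaller table of 145 markers it was 3.91 at 75 cM of that chromosome, where the main scan gave 0.26. Both the height and the position thus depended on the mice and markers used. The male-biased genes *Cyp2d9* (LOD 3.66) and, for 1 of its probe sets, *Cyp7b1* (3.12) and the female-biased *Cyp17a1* (4.13) had their highest LOD at 30 cM of Chromosome 4. The uneven spread of the sexes touches these scores as well, and its part in them was not tested.

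The other highest LOD scores were 2.12 for *Cyp4f14* on Chromosome 5 (54.9 cM), 2.18 and 2.66 for the 2 probe sets of *Cyp4v3* on Chromosomes 8 (97.2 cM) and 13 (83 cM), and 1.88 for *Cyp4b1* on Chromosome 2 (25.5 cM). At 97.2 cM of Chromosome 8 both probe sets of *Cyp4v3* were highest in BB mice. The gene is on this chromosome, but its place on the cM map was not determined, so the point need not lie near it. For the _at probe set the means were 8.54 ± 0.38 in 9 AA, 8.64 ± 0.29 in 33 AB and 8.89 ± 0.29 (SD) in 18 BB mice. For the _s_at probe set they were 10.39, 10.46 and 10.62. The lowest values of the _at and _s_at probe sets were those of mice 200 and 559, both with an array apart. On their own chromosomes *Cyp4a14*, *Cyp4f14* and *Cyp4f15* reached 0.82, 0.54 and 0.49. The genome-wide permutation p of the highest Haley-Knott LOD lay between 0.25 and 0.90 for the 7 probe sets.

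Body weight and the plasma levels of glucose, insulin and triglyceride had been recorded at 8 and again at 10 weeks, and triglyceride in liver once. Their values are in the units of the deposited table. None of the 63 relations of the 7 probe sets with the 9 phenotypes passed adjustment over all probe sets. Of the 63, 13 had an unadjusted p under 0.05 by limma, and 13 by permutation of r. The share of all probe sets at that unadjusted threshold was not counted, so whether 13 is an excess was not tested. The 63 relations are also not independent, since most phenotypes were recorded at both ages and some of the probe sets correlated. Over all probe sets 0.0133% were called against log10 insulin at 10 weeks and 0.144% against liver triglyceride, with 0.0244% against glucose at 10 weeks, 0.00444% against plasma triglyceride at 8 weeks and 0% against the other 5. The slope did not differ between the sexes for any of the 63 relations after adjustment (0 at an unadjusted p under 0.05; lowest adjusted p = 0.68).

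**Figure D4:**
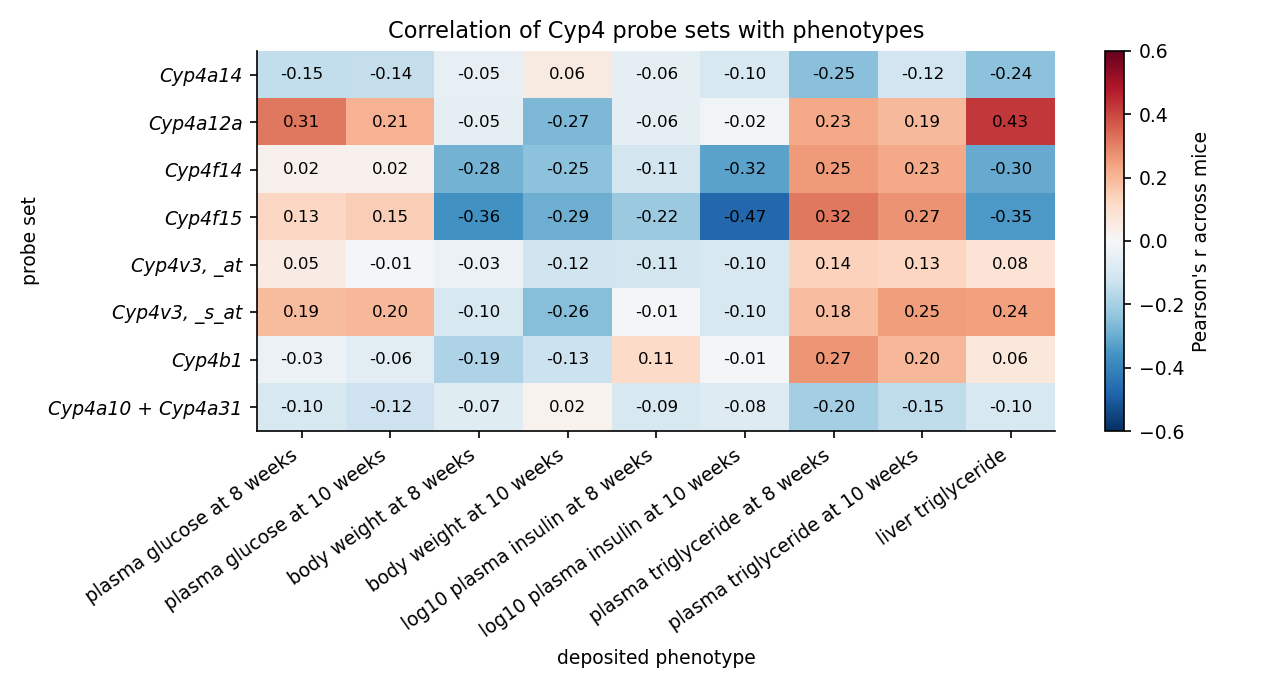
Pearson's r across the mice between each Cyp4 probe set (rows) and each deposited phenotype (columns), printed in the cells and coloured from -0.6 to 0.6. The values for the 7 Cyp4 probe sets run from -0.47 (*Cyp4f15* and insulin at 10 weeks) to 0.43 (*Cyp4a12a* and liver triglyceride), and none passed adjustment over all probe sets.

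The lowest correlation was that of *Cyp4f15* with log10 plasma insulin at 10 weeks. In the 10 mice with the least insulin (2.8 to 6.5, taken back from the log10 values) *Cyp4f15* ran from 10.20 to 11.20 with a median of 10.55, and in the 10 with the most (61.6 to 103.8) from 9.85 to 10.53 with a median of 10.22, so the groups overlapped. Across 57 mice r was -0.47 (permutation p = 0.00014; adjusted p of the slope over all probe sets = 0.11). On ranks rho was -0.50 (permutation p = 0.00011; adjusted p = 0.57), and with insulin on its other scale, not in logarithms, the adjusted p was 0.51. It was -0.67 within 29 females and -0.40 within 28 males, and -0.38 without the 2 mice farthest from the median insulin. Without mouse 167, whose omission was decided on once its values were known, the adjusted p was 0.011, and without all 6 mice with an array apart it was 0.15. *Cyp4a14* had r = -0.51 within females and -0.01 within males, and -0.10 over all mice (adjusted p = 0.93). *Cyp4f14* had r = -0.32 with the same phenotype (permutation p = 0.014, adjusted p = 0.49), with -0.49 in females and -0.24 in males. Its rho was -0.21 (permutation p = 0.12), and r was -0.21 without the 2 mice farthest from the median and -0.15 without the 6 mice with an array apart.

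*Cyp4a12a* was higher where the liver held more triglyceride. It ran from 7.22 to 11.08 (median 9.95) in the 10 mice with the least and from 9.77 to 11.53 (median 10.95) in the 10 with the most. Across 59 mice r was 0.43 (permutation p = 0.00090) and rho 0.48 (permutation p = 0.00020), and the relation missed the threshold over all probe sets (adjusted p = 0.14). It was 0.44 within females and 0.45 within males, and 0.47 without the 2 mice farthest from the median. The Cyp4f genes ran the other way with liver triglyceride, at r = -0.35 for *Cyp4f15* (permutation p = 0.0055, adjusted p = 0.32) and -0.30 for *Cyp4f14* (permutation p = 0.021, adjusted p = 0.44). For *Cyp4f14* rho was -0.19 (permutation p = 0.14). *Cyp4a14* had r = -0.24 and *Cyp4v3* 0.08 and 0.24.

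**Figure D5:**
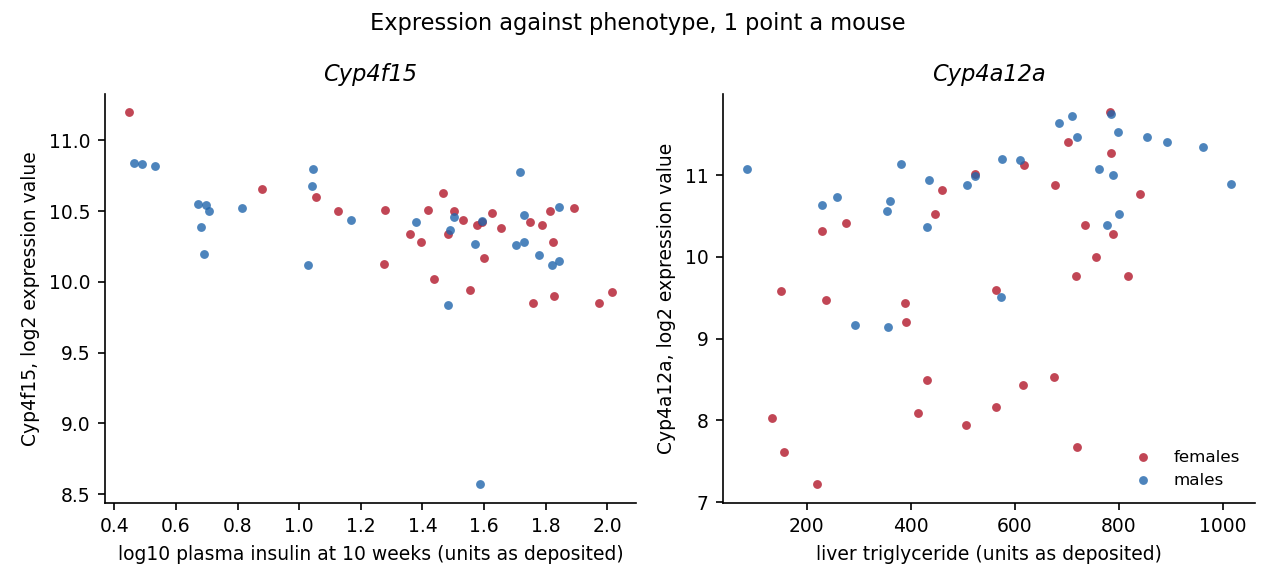
*Cyp4f15* against log10 plasma insulin at 10 weeks (left, n = 57) and *Cyp4a12a* against liver triglyceride (right, n = 59), log2 expression values on the vertical axes, phenotypes in the units of the deposited table, 1 point a mouse. *Cyp4f15* falls with insulin (r = -0.47) apart from mouse 167 at 8.57, and *Cyp4a12a* rises with liver triglyceride (r = 0.43) over a wide spread of females.

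Body weight was the other phenotype in which the Cyp4f genes had low correlations. At 8 weeks r was -0.36 for *Cyp4f15* (n = 55, permutation p = 0.0059, adjusted p = 0.9998) and -0.28 for *Cyp4f14* (permutation p = 0.038). Within males these were -0.50 and -0.52, and within females -0.19 and -0.11. Without mouse 167, the lowest male for both genes, r was -0.25 for *Cyp4f15* and -0.19 for *Cyp4f14*, and within males -0.25 and -0.32. The slope of *Cyp4f15* on body weight at 8 weeks was -0.13 per SD with that mouse and -0.07 without it. Without all 6 mice with an array apart that slope was -0.06, and r was -0.23 for *Cyp4f15* and -0.14 for *Cyp4f14*. For *Cyp4f14* rho over all mice was -0.20 (permutation p = 0.15). The relation of *Cyp4a12a* with glucose at 8 weeks (r = 0.31, permutation p = 0.016) shrank to 0.10 within females and 0.12 within males, and the median glucose was 381.4 in males and 254.8 in females. Plasma triglyceride had positive r with both Cyp4f genes, between 0.23 and 0.32 over both ages.

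The RT-qPCR values of 11 transcripts deposited for the same mice gave no called relation either. Their sign is not stated, but those of *Scd1*, fatty acid synthase and *Pltp* rose with the array values of the same genes (r = 0.88, 0.89 and 0.89), so higher values were read as more transcript. The lowest adjusted p values were those of *Cyp4f15* with *Pltp* (r = -0.38, n = 49, adjusted p = 0.066) and with *Scd1* (r = -0.35, n = 60, adjusted p = 0.088), against 6.55% and 2.94% of all probe sets called. For the other 9 transcripts the share called ran from 0% to 2.81%, with 0.00666% for *Ucp2* and 0.0444% for *Cpt1b*.

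Other members of the family were measured as 9 probe sets of 6 genes. None was called between the sexes, and 4 of 9 reached the LOD threshold, against 15.8% of all. They were *Cyp4f18* (3.55, Chromosome 2), *Cyp4f16* (3.56, Chromosome 10), *Cyp4f39* (3.98, Chromosome 10) and *Cyp4x1* (3.84, Chromosome 18), each by 1 of its probe sets. Of the enzymes after the hydroxylation step, 3 of 16 reached it, with *Adh1*, the main liver alcohol dehydrogenase, at 14.3 on Chromosome 6. That score is given from the main scan alone, and how far it depends on mouse 167 was not tested. *Adh1* also had r = 0.57 with *Cyp4f15* (adjusted p = 0.00024), which was 0.04 without mouse 167, so that relation rested on this mouse. *Adh4*, another alcohol dehydrogenase, had 0.46 (adjusted p = 0.0096) and 0.45 without it.

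The lists of other cell types held 43 probe sets, for Kupffer cells, stellate cells, sinusoidal endothelium, cholangiocytes, adipocytes and pancreatic acinar cells. None was called between the sexes, where 1.41% of all probe sets were. None had a called slope on *Cyp4a12a* (0.229% of all), and 1 had one on *Cyp4a14* (0.941% of all), the macrophage gene *Adgre1* (r = -0.46, adjusted p = 0.036). The 7 Kupffer cell probe sets had a median r of -0.31 with *Cyp4a14*. On *Cyp4f14* *Cidec* was called (r = -0.46, 0.608% of all), which is listed for adipocytes but is also the lipid droplet gene named above. On *Cyp4f15* *Cidec* and the endothelial *Stab2* were called (r = -0.47 for *Stab2*, and -0.18 without mouse 167, 3.09% of all). The median r of the 2 adipocyte probe sets was -0.20 with *Cyp4f14* and -0.23 with *Cyp4f15*. That of the 9 endothelial probe sets with *Cyp4f15* was -0.07. On *Cyp4b1* 3 were called (3.09% of all): the Kupffer cell lectin *Clec4f* (r = 0.50, adjusted p = 0.0054), the endothelial lectin *Clec4g* (r = 0.49, adjusted p = 0.0075) and *Rgs5* (r = -0.44, adjusted p = 0.025). The median r with *Cyp4b1* was 0.09 for the Kupffer cell list, -0.02 for the endothelial list and -0.12 for the stellate cell list. On *Cyp4v3* 2 probe sets of the endothelial *Ptprb* were called (13.3% of all), with opposite signs (r = 0.51 and -0.35, adjusted p = 0.00047 and 0.039). The part of these cells in the results was not tested. The 11 hepatocyte probe sets had mean log2 values from 11.61 (*Tat*) to 14.10 (*Alb*), and in bulk liver fewer cells of a type and less RNA per cell cannot be told apart.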

How the data were processed

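Liver RNA of 60 mice was hybridized to MOE430A and MOE430B arrays. The authors summarized cell intensities from MAS5 into RMA estimates, deposited as log2 values; no versions were stated. Genotypes, plasma and liver phenotypes and RT-qPCR values relative to beta-actin were deposited by the authors as other tables, and sex came from these and not from the sample labels. The Cyp4 probe sets were chosen by the symbol of the platform annotation. Other gene names are the RefSeq symbols of the gene identifiers it gives, or its own symbols where there was none. For 100 probe sets on both array types the MOE430A value was used, and the 64 controls on either type were dropped. No filter on low values was applied. A table of 110 mice was not used here.

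Sex differences, slopes on phenotypes and slopes on the lead probe set of each gene were fitted over all 45037 probe sets with limma 3.58.1 in R 4.3.3, with Benjamini-Hochberg adjustment and a threshold of 0.05. Interval mapping by maximum likelihood used 194 markers at steps of 5 cM, with Haley-Knott regression and 100000 permutations as a check (Python 3.11.15, numpy 2.4.6, scipy 1.17.1). A pair of Cyp4 genes was called by the larger of the adjusted p values of the fits in both directions. This replaced an adjustment over the pairs alone, and phenotype relations were likewise adjusted over all probe sets. The procedures were tested on simulated data. With 1 array of each type per mouse, precision is limited by the number of mice, and p-values measure the spread between mice.

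The genes and lists were chosen with earlier results of these data known. Named genes were the 5 highest and 2 lowest correlations of each lead probe set and, from each list, the 2 largest sex differences each way and the 3 highest and 2 lowest correlations with *Cyp4a14*. Other list members, such as those named for *Cyp4a12a* and *Cyp4f15*, were named after their values were seen. Alternatives covered the mapping method, markers, ranks, sex, body weight, the first principal component and the mice with an array apart, whose median correlation with the other arrays lay more than 3 median absolute deviations below the median. Leaving out mouse 167, and leaving it or the mice with an array apart out of the correlations with list genes, was chosen after seeing the data; those correlations were not tested again.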

Additional observations from a re-analysis of the deposited data

How the results depend on the processing

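The number of the 7 Cyp4 probe sets at a LOD score of 3.4 or greater was 0 in the main scan, 1 with the table of 145 markers, 3 without the 6 mice with an array apart and 1 on normal scores. Of all probe sets, 15.8%, 13.3%, 17.3% and 15.5% reached it in these settings, in the same order. The number of called phenotype relations was 0, and 1 without mouse 167. The number of called pairs was 1, and 0 without the mice with an array apart or with Spearman's rho. The cause was not tested. Sex differences near 0 changed sign without a call. That of *Cyp4f14* (-0.04) became 0.0334 rank units on ranks and 0.0053 without mouse 167. That of *Cyp4f15* (0.01) became -0.073 with body weight as a covariate. That of *Cyp4v3* (_at probe set) became 0.024 when the first principal component was added. That of *Cyp4b1* became 0.014 without the mice with an array apart, 0.022 with the first principal component and 0.0058 without mouse 167. Of the other tested values for single probe sets, 169 kept their direction and side of the threshold, 7 passed it and 2 no longer did. No paired analysis was possible because the groups that share mouse numbers are the array types, which carry different probe sets.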
